A study of Sus scrofa with 2 samples.

Results

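Interleukins are secreted proteins through which leukocytes and the cells around them signal, and most act through receptors built from a private chain and a chain shared between several ligands. The genes placed here were the protein-coding genes of the pig (Sus scrofa) whose symbol begins with IL and a digit, ligands and receptors alike, without IL4, IL5, IL13 and IL10RB. There were 74 such genes. IL1B2 was not placed on a chromosome in the annotation, which left 73 of the 19550 protein-coding genes on chromosomes 1 to 18, X and Y. They comprised 39 receptor genes, 32 ligand genes and 2 genes that are neither, IL18BP, a secreted binding protein for interleukin 18, and IL4I1, an amino acid oxidase. The symbols decided membership, so the chemokine CXCL8, an older interleukin 8, was not a member.

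Chromatin contacts were measured by in situ Hi-C, in which fixed DNA is cut, ligated to its neighbours in the nucleus and sequenced, in spleen tissue in 2 biological replicates of 1 group. No genotype, age, sex or treatment is given in the labels. The deposited tables list 3410 loops (pairs of 25 kb bins, called anchors, with more contacts than their surroundings) and 1927 topologically associating domains (TADs, stretches that contact themselves more than their flanks, with a median length of 260 kb). Both tables were deposited for the series and name no replicate, so no value per replicate could be given. The intervals below cover counting error only. The libraries came from whole spleen, so a contact made in few cells and a weaker contact made in many cannot be told apart. No RNA was measured, and the tissue label could not be checked against marker genes. The sequencing depth is unknown here. The contacts listed per loop ranged from 10 to 1004, with a median of 108.

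In the spleen, interleukins govern the growth and choices of T and B cells in the white pulp and the activity of macrophages and innate lymphocytes. Their genes fall into families. Class I receptors bind four-helix cytokines and signal through JAK kinases and STAT factors, with the gamma chain (IL2RG) and gp130 (IL6ST) as chains shared by many ligands. Class II receptors bind the interleukin 10 group and interferons and also signal through JAK and STAT. Receptors of the interleukin 1 family signal through MYD88 and IRAK kinases, and those of the interleukin 17 family through the adaptor TRAF3IP2. Many members lie beside each other in the genome, and 28 of the 73 shared 12 loci with another member less than 100 kb away.

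IL genes met loop anchors about as often as other genes. Either annotated end of 12 of the 73 IL genes (16.4%, 95% Wilson interval 9.66 to 26.6%) lay in an anchor, beside 17.3% of all protein-coding genes. Among receptors 8 of 39 did (20.5%, 10.8 to 35.5%), and among ligands 4 of 32 (12.5%, 4.97 to 28.1%), with intervals that overlap widely and include the share of all genes. The receptors at anchors were IL22RA2, IL20RA, IL20RB, IL6ST, IL27RA, IL21R, IL4R and IL18RAP. The ligands were IL31, IL26, IL25 and IL19. These 12 genes lay in 10 separate loci and had 15 loops. The 1701 loops with the lowest FDR were taken from the 3402 loops on chromosomes 1 to 18, X and Y. In these 1701, 4 of the 12 genes kept an anchor, IL20RB, IL6ST, IL27RA and IL25 (5.48%, beside 9.37% of all protein-coding genes). FDR here is the largest of the 4 q-values listed for a loop. A further 3 genes had an end less than 10 kb outside an anchor, IL1RL2, IL23A and IL29, which brought the share to 20.5%, beside 24.5% of all protein-coding genes.

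**Figure D1:**
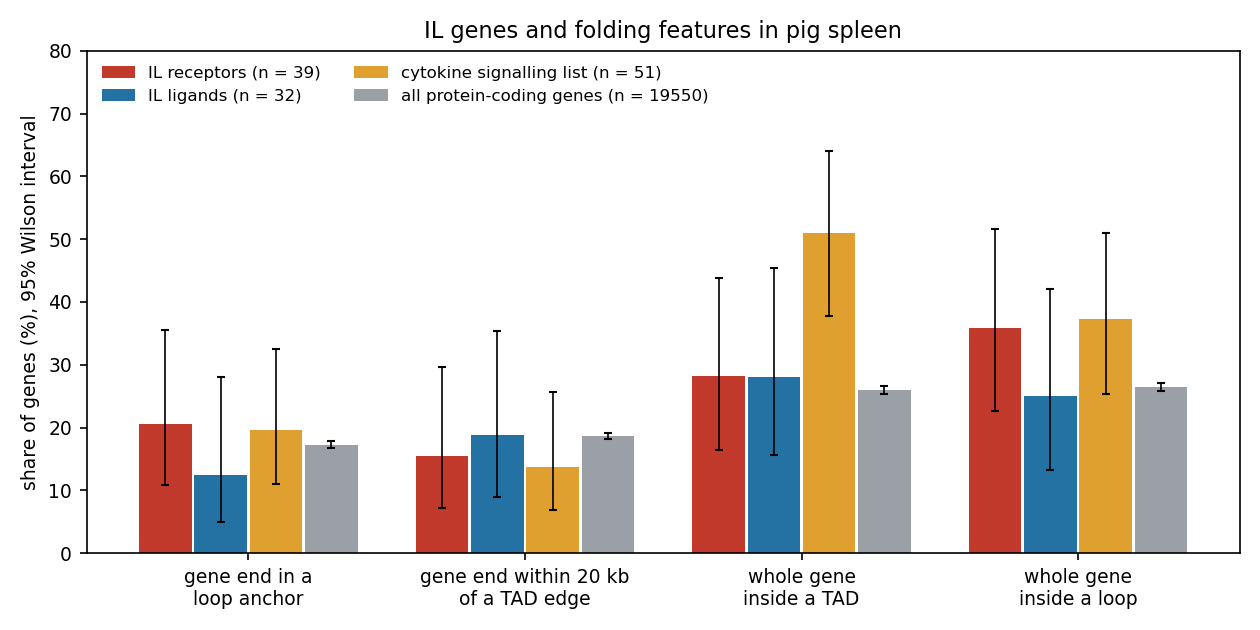
Share of IL receptor genes, IL ligand genes, a list of 51 other cytokine signalling genes and all protein-coding genes (y axis, percent) that lay at each of the 4 kinds of position named on the x axis. Error bars are 95% Wilson intervals, and those of receptors and ligands overlap at every position, with receptors at 20.5% and ligands at 12.5% in loop anchors.

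TADs and loops held IL genes in similar measure. Within 20 kb of a TAD edge lay 12 of the 73 IL genes (16.4%, 9.66 to 26.6%), beside 18.7% of all protein-coding genes, with 6 of 39 receptors (15.4%) and 6 of 32 ligands (18.8%). Wholly inside a TAD lay 20 of 73 (27.4%, 18.5 to 38.6%), beside 26.0% of all protein-coding genes, with 11 of 39 receptors (28.2%) and 9 of 32 ligands (28.1%). Wholly between the outer limits of a loop lay 22 of 73 (30.1%, 20.8 to 41.4%), beside 26.5% of all protein-coding genes, with 14 of 39 receptors (35.9%) and 8 of 32 ligands (25%). Loops of any span counted here, and IL11RA and IL17B were held only by loops of 5250 and 875 kb. The share inside loops was not recomputed with fewer loops. The receptors at TAD edges were IL20RA, IL20RB, IL6ST, IL22RA1, IL31RA and IL11RA. The ligands there were IL31, IL12B, IL21, IL29, IL1A and IL34, of which IL29, an interferon lambda, and IL34, a growth factor of macrophages, lay 14.7 and 18.7 kb outside the nearest TAD. By family, a grouping made after the values were seen, 13 of 31 class I genes (41.9%, 26.4 to 59.2%), 4 of 12 genes of the interleukin 17 family (33.3%), 3 of 13 class II genes (23.1%) and 0 of 13 genes of the interleukin 1 family were wholly inside a TAD. At least 1 of these 4 placements held for 36 IL genes (49.3%), beside 52.2% of all protein-coding genes. Receptor genes were longer than ligand genes, with medians of 39.0 and 7.2 kb, against 20.7 kb for all protein-coding genes. The part that length has in these shares was not tested.

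The distance from a gene end to the nearest anchor was a median of 72.4 kb for IL genes (quartiles 14.8 and 234 kb), against 94.9 kb for all protein-coding genes (10.9 and 380 kb). The distance to the nearest TAD edge was a median of 125 kb for IL genes and 107 kb for all genes. IL genes had a median of 11 other protein-coding genes within 500 kb, against 15 for all genes. Over 1 Mb from any anchor lay 7 IL genes (9.59%), beside 10.2% of all genes. These were IL5RA, the interleukin 5 receptor chain of eosinophils, IL17REL, IL17C, IL16 and, on chromosome X, IL1RAPL1, IL13RA1 and IL13RA2. All 5 IL genes of chromosome X are receptors. None had any of the 4 placements, beside 27.2% of all protein-coding genes of chromosome X with at least 1. That chromosome had 37 loops and 15 TADs in all, and 5.38% of its protein-coding genes reached an anchor with an end. On chromosomes 1 to 18 alone, 8 of 34 receptors (23.5%) and 4 of 32 ligands (12.5%) were at anchors, beside 17.8% of all genes there.

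**Figure D2:**
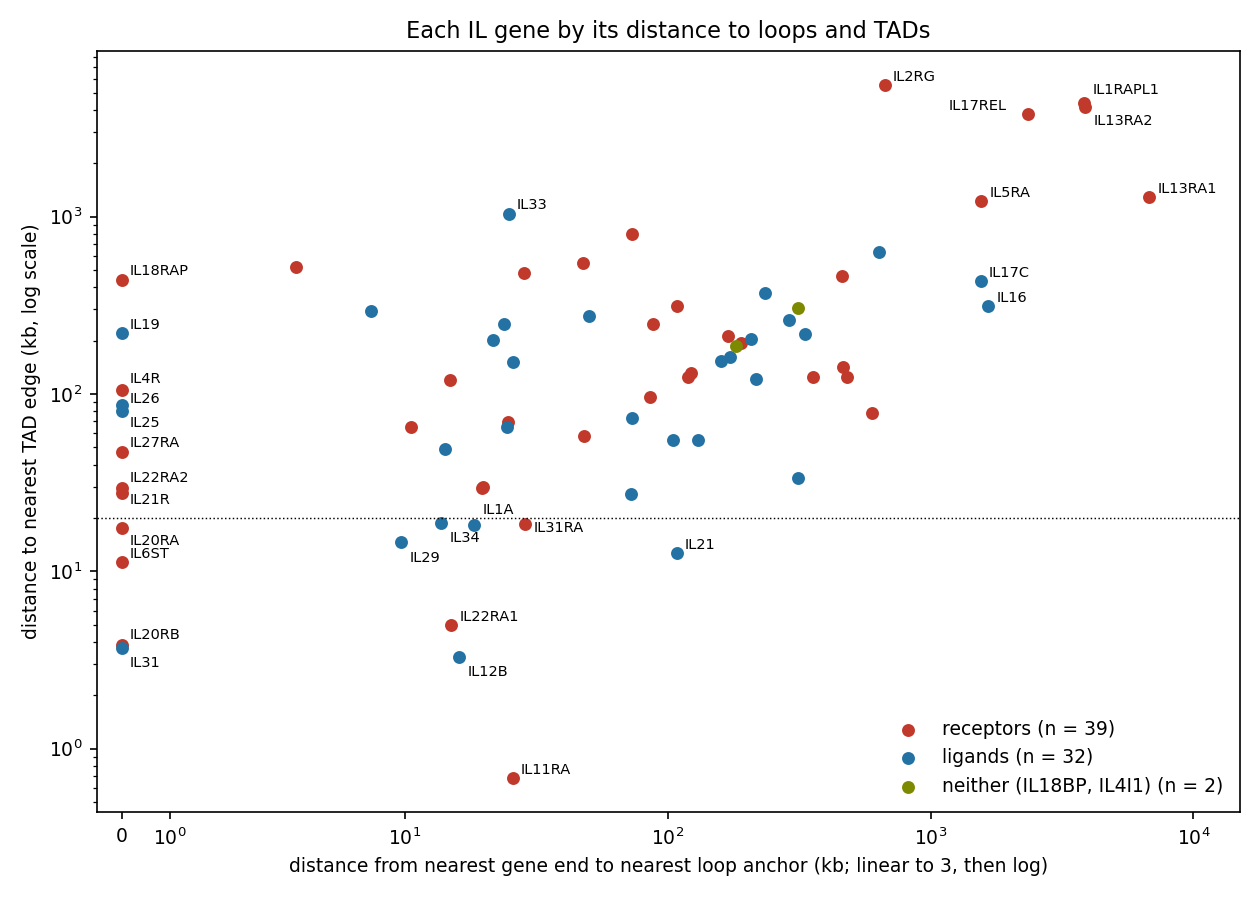
Each of the 73 IL genes by the distance of its nearer end to the nearest loop anchor (x axis, kb, linear to 3 and then logarithmic) and to the nearest TAD edge (y axis, kb, logarithmic), with receptors, ligands and the 2 other genes in separate colours. The 12 genes at anchors stand at 0 on the x axis, and the dotted line marks 20 kb from a TAD edge. On chromosome X, IL13RA1 and IL2RG lie far from both features, and IL1RAPL2 lies 72.9 kb from an anchor. All protein-coding genes of that chromosome had medians of 550 kb to an anchor and 1940 kb to a TAD edge.

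The loop between IL21R and IL4R was the single loop that joined 2 IL genes. IL21R, the receptor of interleukin 21, and IL4R, the alpha chain of the interleukin 4 and interleukin 13 receptors, are neighbours 37.1 kb apart on chromosome 3, and the proteins they encode direct class switching in B cells. The loop joined the bin from 19425001 to 19450000, with the lower-coordinate end of IL21R and an end of GTF3C1, to the bin from 19525001 to 19550000, with the lower-coordinate end of IL4R. It had 137 observed contacts (exact Poisson interval 115 to 162) against 87.2 expected from the donut of pixels around it, with an FDR of 0.0148. Its ratio, 1.57, was low for its span, with 19.2% of the 719 autosomal loops of 100 kb below it. A second loop ran onward from the IL4R bin to the bin from 19625001 to 19650000, which holds an end of NSMCE1, with 165 contacts (141 to 192) against 98.5 expected and an FDR of 0.0159. A pixel touching it, with 168 contacts and an FDR of 0.00796, started in the bin just before IL4R. With the pixel of the lowest FDR alone kept from each touching group, the loop to IL21R was the one left at the IL4R bin. Neither was among the 1701 loops with the lowest FDR. Both receptors lay in a TAD of 280 kb, from 19420001 to 19700000, with NSMCE1 and KDM8 as the other protein-coding genes wholly inside.

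IL genes within 1 Mb of each other formed 31 pairs, many of them from the rows of genes around IL1R1 and around IL10. Pairs of other protein-coding genes were not counted for comparison. Of the 31 pairs, 3 shared a TAD. Besides IL21R and IL4R these were IL17RE and IL17RC, receptor chains of the interleukin 17 family 1.33 kb apart on chromosome 13, and the ligands IL21 and IL2. The TAD of IL17RE and IL17RC, from 65900001 to 66320000, held 18 protein-coding genes, and its right edge lay 142 and 125 kb beyond them. IL2, the growth factor of T cells, and IL21, which acts on B and T cells, lay 100 kb apart on chromosome 8 in a TAD of 690 kb, from 101520001 to 102210000. IL21 stood 12.7 kb from its left edge and IL2 stood 121 kb inside it. No loop listed had an anchor at either gene, and the nearest anchors were 108 and 216 kb away.

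In the full list of loops the class II family, by the same grouping, had the most members at anchors for its size, which did not hold in the 1701 loops with the lowest FDR. Of its 13 genes 5 were at anchors (38.5%, 17.7 to 64.5%), from 4 loci, beside 17.3% of all protein-coding genes. In the other families 5 of 31 class I genes, 1 of 13 interleukin 1 genes and 1 of 12 interleukin 17 genes were at anchors. In the 1701 loops with the lowest FDR, 1 of the 13 class II genes was at an anchor (7.69%, 1.37 to 33.3%), beside 9.37% of all protein-coding genes and 1 of 12 interleukin 17 genes (8.33%). The 5 class II genes in the full list were the receptor chains IL20RA, IL20RB and IL22RA2 and the ligands IL26 and IL19. IL20RA and IL20RB together form the receptor of interleukins 19, 20 and 24, and IL22RA2 is a soluble receptor that binds and blocks interleukin 22. In the full list no class II gene lay more than 50.2 kb from an anchor, though the 13 genes came from only 8 loci. Their median distance was 10.5 kb, beside 94.9 kb for all protein-coding genes (quartiles 10.9 and 380 kb). Distances were not computed on the 1701 loops with the lowest FDR.

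IL20RB had the most loops of any IL gene, with 3 that ended at its upper-coordinate end on chromosome 13, in the bin from 77975001 to 78000000. The loop of 225 kb, to the bin from 77750001 to 77775000, had 124 contacts (103 to 148) against 47.5 expected, a ratio of 2.61 and an FDR of 0.000552. The pixel touching it, at 200 kb, had 112 contacts and a ratio of 2.06. The longest, of 625 kb, had 75 contacts (59.0 to 94.0) against 34.7 expected, with an FDR of 0.0955. All 3 far anchors lay within STAG1, which encodes a cohesin subunit. The anchors of the 225 kb loop held both edges of a TAD from 77750001 to 77990000, which held IL20RB, SLC35G2 and the adaptor gene NCK1, and IL20RB ended 3.84 kb short of its right edge. Among autosomal loops of the same span, 89.3% had a lower ratio.

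IL22RA2 and IL20RA are neighbours on chromosome 1, 46.9 kb apart, and a TAD edge at 27120000 fell between them. IL22RA2 lay inside the TAD from 26930001 to 27120000 together with IFNGR1, the ligand-binding chain of the interferon gamma receptor. A loop of 150 kb with 110 contacts (90.4 to 133) against 62.6 expected and an FDR of 0.0444 had the left edge of that TAD in one anchor and IL22RA2 in the other, which ended 20 kb short of the right edge. IL20RA started 17.5 kb beyond the edge. Its own loop, of 450 kb, had 64 contacts (49.3 to 81.7) against 33.2 expected and an FDR of 0.0846. It reached back over IL22RA2, IFNGR1 and OLIG3 to a bin with no protein-coding gene end. Its ratio, 1.93, was low for its span, with 2.86% of the 35 autosomal loops of 450 kb below it. IL22RA1, the signalling chain for interleukin 22, lay on chromosome 6 across the left edge of a TAD at 81880000, with its nearer end 15 kb from an anchor. That TAD held IFNLR1, the interferon lambda receptor chain, whose end was in the anchor from 81900001 to 81925000. The IFNLR1 loop, of 175 kb, had 148 contacts against 56.6 expected.

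Loops at 2 class II ligand loci had an immune regulator as the only protein-coding gene wholly inside. On chromosome 9 an end of MAPKAPK2, a kinase downstream of p38, in the bin from 67350001 to 67375000, was joined by a loop of 100 kb to the lower-coordinate end of IL19 in the bin from 67450001 to 67475000. It had 165 contacts (141 to 192) against 95.7 expected, a ratio of 1.72 and an FDR of 0.0159. Between them lay IL10, the main anti-inflammatory interleukin, whose nearer end was 25.7 kb from an anchor. IL20 and IL24, the further members of this cluster, lay outside the loop, 23.8 and 50.2 kb from its right anchor. None of the 4 lay in a TAD. On chromosome 5 the lower-coordinate end of IL26, in the bin from 32550001 to 32575000, was joined to a bin without a protein-coding gene end, from 32450001 to 32475000, at a span of 100 kb. The loop had 90 contacts (72.4 to 111) against 48.1 expected and an FDR of 0.0835. IFNG, the gene of interferon gamma, was the protein-coding gene inside it. IL22, an epithelial defence cytokine, stood 24.5 kb beyond the IL26 anchor. Neither loop was among the 1701 loops with the lowest FDR.

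IL6ST, a class I chain with 2 loops of its own, encodes gp130, used by the receptors of interleukins 6, 11 and 27. Its lower-coordinate end on chromosome 16 lay in the bin from 35100001 to 35125000, with touching loops of 175 and 200 kb into the body of ANKRD55. These had 130 contacts (109 to 154) against 64.7 expected and 124 contacts (103 to 148) against 61.5 expected, with FDR of 0.0722 and 0.000552. Their anchors lay within 10 kb of the edges of a TAD from 35090001 to 35310000, in which IL6ST was the sole protein-coding gene wholly inside. Its neighbour IL31RA, which pairs with the oncostatin M receptor to bind interleukin 31, ended 18.6 kb before that TAD. A larger loop of 425 kb, from an end of DDX4 to the bin from 35300001 to 35325000, took in both IL31RA and IL6ST, with 85 contacts (67.9 to 105) against 31.9 expected and an FDR of 2.21e-06.

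**Figure D3:**
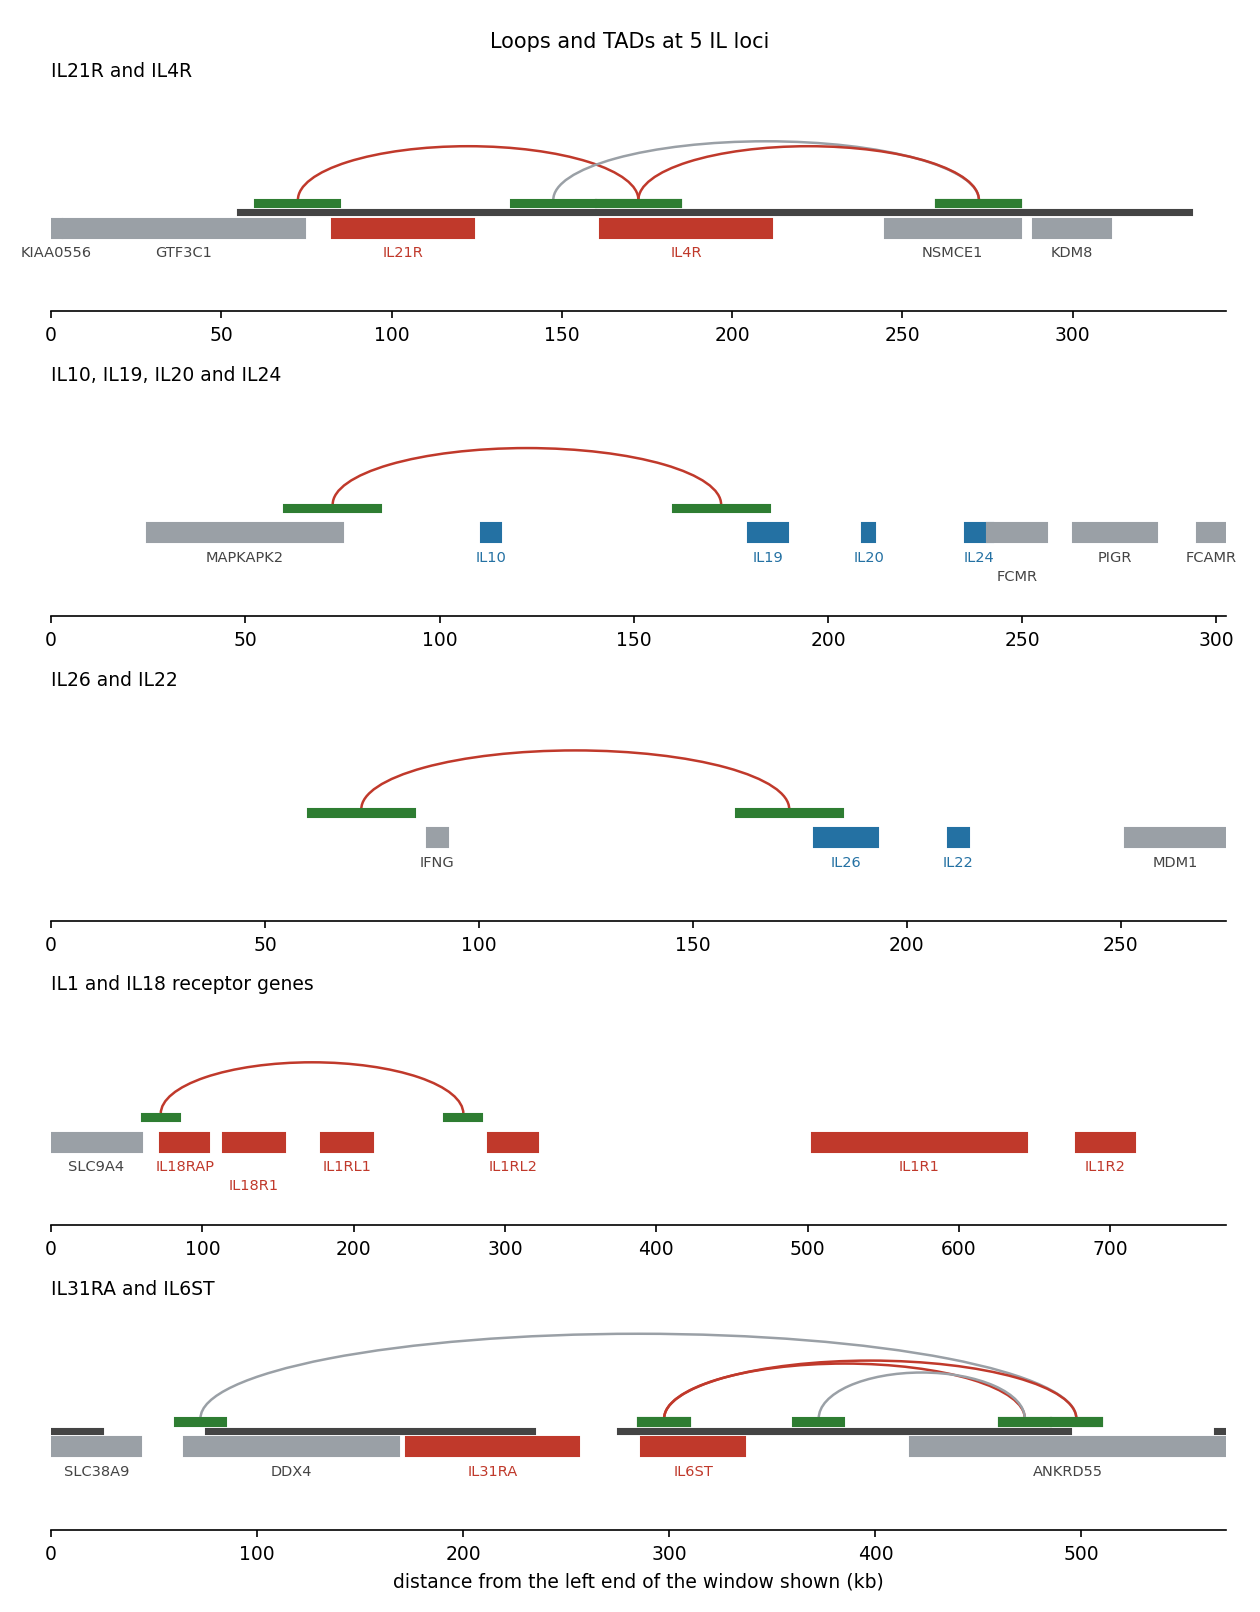
Maps of 5 IL loci, with distance from the left end of each window in kb on the x axis. Coloured boxes are genes (red for IL receptors, blue for IL ligands, grey for other protein-coding genes), green bars are loop anchors, dark bars are TADs, red arcs are loops with an IL gene end in an anchor and grey arcs are other loops. The arc heights carry no value. IL21R and IL4R are joined by a loop in a TAD of 280 kb, and IL10 and IFNG each lie between the anchors of a loop of 100 kb.

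The chains of the interleukin 2 receptor had no anchor. IL2RG, the gamma chain, lay on chromosome X 669 kb from an anchor. IL2RB, the beta chain for interleukins 2 and 15, was on chromosome 5 in a TAD of 180 kb with RAC2 and 4 other genes. A loop of 150 kb with 109 contacts against 68.3 expected lay around IL2RB, with an FDR of 0.0565, from the left edge of this TAD to a bin that ended 20 kb short of its right edge. IL2RA and IL15RA, the private alpha chains for the same ligands, are neighbours on chromosome 10 and had none of the 4 placements, 48.1 and 122 kb from an anchor. IL12RB1 and IL12RB2, the chains of the interleukin 12 receptor, and IL23R had none of the 4 either. An anchor lay within the body of IL12RB2, the single IL gene that met an anchor by its span and not by an end. IL7R, the interleukin 7 receptor of developing and resting T cells, lay inside a loop of 125 kb on chromosome 16 with 118 contacts (97.7 to 141) against 53.5 expected, a ratio of 2.21 and an FDR of 9.25e-07. One anchor of this loop held ends of CAPSL and UGT3A2.

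IL27RA and IL10RA lay in groups of touching loops. The receptor of interleukin 27 was wholly inside an anchor on chromosome 2, from 65125001 to 65150000, which it shared with ends of PALM3 and RLN3. Its loop of 150 kb led to the bin from 65275001 to 65300000, which holds the microRNA genes MIR181C and MIR181D and no protein-coding gene end. It had 167 contacts (143 to 194) against 90.2 expected, a ratio of 1.85 and an FDR of 0.0103. It was 1 of 3 touching pixels, and with the pixel of the lowest FDR alone kept from each such group IL27RA was no longer at an anchor. IL10RA, the ligand-binding chain for interleukin 10, lay in a TAD of 240 kb on chromosome 9. It was inside 2 loops that ran from the bins on either side of 45200000, at FXYD6, to the bin from 45375001 to 45400000. The stronger had 185 contacts (159 to 214) against 70.8 expected, a ratio of 2.61 and an FDR of 7.75e-11, the lowest FDR of any loop around an IL gene. IL10RA had no end in these anchors, and the nearest anchor of any loop was 10.5 kb away.

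Of the 9 receptor genes of the interleukin 1 family, 6 lie in a row on chromosome 3, and a loop took in 3 of them. It joined the lower-coordinate end of IL18RAP, the accessory chain of the interleukin 18 receptor, in the bin from 51750001 to 51775000, to the bin from 51950001 to 51975000, which has no protein-coding gene end. It had 67 contacts (51.9 to 85.1) against 29.3 expected, a ratio of 2.29 and an FDR of 0.03. IL18RAP, IL18R1 and IL1RL1, which encodes the receptor of interleukin 33, lay inside it. IL1RL2, the interleukin 36 receptor, started 3.86 kb beyond its right anchor, and IL1R1 and IL1R2, the signalling and decoy receptors of interleukin 1, lay 190 and 119 kb from their nearest anchors. For the 0 of 13 genes of this family inside a TAD, the Wilson interval allows up to 22.8%. The ligands IL1A and IL1B lay 41.2 kb apart on the same chromosome without an anchor, and IL1A ended 18.3 kb before a TAD. IL33, an alarmin released by damaged tissue, lay inside 3 touching loops of 200 to 225 kb on chromosome 1. They had 64, 64 and 54 contacts against 30.7, 32.3 and 20.4 expected.

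Among the other ligands, IL6 was alone in its TAD. This inducer of the acute phase and of plasma cells lay on chromosome 9 between 91340001 and 91560000, with no other protein-coding gene wholly inside. A loop of 200 kb with 85 contacts (67.9 to 105) against 37.7 expected and an FDR of 0.00267 ran from its left edge to a bin that ended 10 kb short of its right edge, and neither anchor held a protein-coding gene end. IL7, the survival factor of lymphocytes, was likewise the sole protein-coding gene wholly inside its TAD, of 800 kb on chromosome 4, the longest of the 18 TADs that held IL genes. No loop had both anchors within 20 kb of the edges of that one. IL31, an itch cytokine of T cells, lay wholly inside an anchor on chromosome 14, from 30550001 to 30575000, 3.69 kb from the edge of a TAD of 150 kb nested in one of 310 kb. Its loop of 100 kb, to an end of BCL7A, had 192 contacts (166 to 221) against 118 expected, a ratio of 1.62 and an FDR of 0.0745. It was 1 of 2 touching pixels, and with the pixel of the lowest FDR alone kept IL31 was no longer at an anchor. IL12B, the chain common to interleukins 12 and 23, started 3.27 kb inside a TAD of 180 kb on chromosome 16 and had no anchor.

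In the interleukin 17 family the ligand IL25 was at an anchor. It lay wholly in the bin from 75700001 to 75725000 on chromosome 7, which it shared with ends of CMTM5 and EFS, among others. The loop of 100 kb ended within RNF212B, with 155 contacts (132 to 181) against 87.3 expected, a ratio of 1.77 and an FDR of 5.64e-05, the lowest of the loops anchored at IL genes. IL17A and IL17F, the neutrophil-recruiting ligands of helper T cells, are neighbours on chromosome 7 and had none of the 4 placements, with anchors 208 and 159 kb away. IL17RA, their shared receptor chain, stood 19.7 kb from an anchor and 29.7 kb from a TAD edge, and also had none. IL17B lay inside a loop of 875 kb with 21 contacts (13 to 32.1) against 2.96 expected. A longer one still, of 5250 kb with 16 contacts (9.15 to 26.0) against 2.06 expected, was the loop that took in IL11RA, the interleukin 11 receptor, which ended 0.685 kb before a TAD on chromosome 10. IL28B, an interferon lambda on chromosome 6, lay inside a loop of 125 kb with 167 contacts (143 to 194) against 76.0 expected, 21.7 kb from an anchor. The interleukin 23 chain IL23A lay inside a loop of 100 kb, with STAT2 among the 8 protein-coding genes wholly inside. This loop had 131 contacts (110 to 155) against 86.2 expected and an FDR of 0.0589. Neither IL23A nor STAT2 had an end in an anchor.

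The 15 loops anchored at IL genes lay within the range of the other autosomal loops. Of the 15, 4 were among the 1701 loops with the lowest FDR, a set taken from 3402 loops. A ratio below the median of autosomal loops of their span was found for 11 of the 15. Their median span was 150 kb, against 175 kb for the 3261 autosomal loops. Their median number of observed contacts was 124, against 109. Their ratios to expected contacts ran from 1.57 to 2.61 with a median of 1.87, against a median of 2.0. Loops of 100 kb made up 6 of the 15 (40%), against 22% of autosomal loops, and at that span the median ratios were 1.70 and 1.73. The median FDR was 0.0262 for the 15 loops and 0.0129 for all autosomal loops. Of the 15, 4 had anchors within 20 kb of both edges of a TAD, at IL22RA2, at IL20RB and, with 2 touching pixels, at IL6ST. Of these, 1, at IL20RB, had both edges in its anchors. The same counts were not made over all autosomal loops, so they cannot be read as many or few. Of the 12 genes, 3 had both ends in an anchor, 7 the lower-coordinate end and 2 the upper. The annotation used gives no strand, so which of these is the transcription start is not given here.

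**Figure D4:**
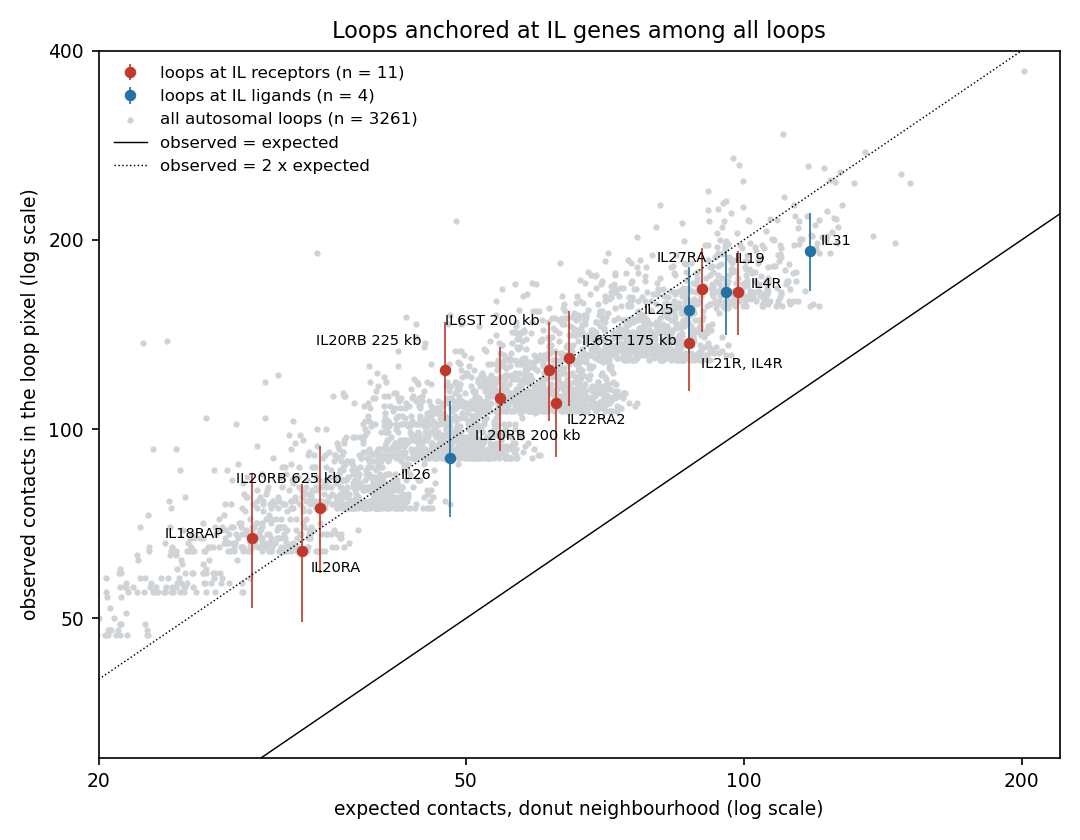
Observed contacts (y axis, logarithmic) against contacts expected from the donut neighbourhood (x axis, logarithmic) for autosomal loops (grey, those within the axes) and the 15 loops with an IL gene end in an anchor, with exact 95% Poisson intervals for the observed contacts. The points of IL genes lie among the other loops, from IL18RAP and IL20RA near the lower left to IL31 at 192 contacts, and all lie above the line where observed equals expected.

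The genes that carry interleukin signals inside the cell were placed in the same way, from a list of 54 kinases, STAT factors, adaptors, inhibitors and related receptors, of which 51 matched a placed gene. At anchors lay 10 of the 51 (19.6%, 11.0 to 32.5%), beside 17.3% of all protein-coding genes. Wholly inside a TAD lay 26 of 51 (51.0%, 37.7 to 64.1%), beside 26.0% of all protein-coding genes and 27.4% of IL genes. These included JAK3, the kinase bound to the gamma chain, STAT3, STAT5A, STAT6 and the inhibitors SOCS1, SOCS2, SOCS3 and CISH. The list had a median of 20 protein-coding genes within 500 kb, against 11 for IL genes and 15 for all protein-coding genes. The part of gene density in the share inside TADs was not tested, and the list was chosen with earlier results of these data known. At TAD edges lay 7 of 51 (13.7%), beside 18.7% of all genes. Each of the 10 genes at anchors had 1 loop. The STAT5B loop, of 175 kb, took in STAT3 and STAT5A and led to an end of CAVIN1, with 131 contacts (110 to 155) against 70.2 expected and an FDR of 0.0589. TYK2, the JAK kinase of the interleukin 12, 23 and class II receptors, had 260 contacts (229 to 294) against 122 expected on its loop of 100 kb, whose anchors lay within 10 kb of both edges of a TAD and which led to a bin with ends of ICAM1 and MRPL4. STAT4, which transmits interleukin 12, had an end in each anchor of a loop of 100 kb with 116 contacts against 55.0 expected. JAK2, a kinase of many cytokine receptors, was joined to an end of RCL1 by 107 contacts (87.7 to 129) against 62.3 expected. TRAF6, the ubiquitin ligase of the interleukin 1 and 17 pathways, had 107 contacts against 58.8 expected on its loop, also of 125 kb. CLCF1, a ligand of the gp130 group, and TAB1, an adaptor of the kinase that TRAF6 activates, had loops of 100 kb with 136 and 169 contacts.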

How the data were processed

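In situ Hi-C libraries of pig spleen (2 biological replicates, DpnII) were processed with HiC-Pro 3.1.0, per the submitters' processing notes. Loops carry the column names of HiCCUPS and, per the file headers, come from juicer_tools 1.9.9. Their observed contact counts are raw counts, their expected signal comes from 4 neighbourhoods, and their FDR values are q-values, all as deposited by the authors. The TAD list, deposited as start and end positions, has no named caller. The sources used here do not give the build, the depth or whether replicates were pooled. Genes came from RefSeq's table of Sscrofa11.1, which has no strand, so both annotated ends were used. Coordinates count from 1.

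A gene was at an anchor if either end lay in the 25 kb bin, and at a TAD edge if either end lay within 20 kb. Shares have 95% Wilson intervals and contacts exact Poisson intervals (scipy 1.17.1), which treat genes and contacts as independent. No test was made: the members and lists were chosen with earlier results of these data known. The placement was tested on simulated data. All members could be named, with loop values for those at anchors, and up to 8 signalling genes by loop number and span, with ties kept. Some results for single signalling genes are not reported here. Alternatives were other windows, gene spans, fewer loops, 1 gene per locus and, added after seeing the data, chromosomes 1 to 18 alone, families on fewer loops and TAD edges inside anchors. Sequences were not used here.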

Additional observations from a re-analysis of the deposited data

How the results depend on the processing

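Of 60 alternative values for the 12 shares of IL and signalling genes at anchors, TAD edges and inside TADs, 48 stayed within 1.5 times the main value. The other 12 follow the loops or window counted. With the 1701 placed loops of lowest FDR (2810 anchors in place of 5285), shares at anchors were 5.48% for IL genes, 7.69% for receptors, 3.12% for ligands and 9.8% for signalling genes, beside 9.37% of all protein-coding genes. With anchors extended by 10 kb, signalling genes were at 37.3%, beside 24.5% of all. Within 10 kb of a TAD edge lay 6.85% of IL genes, 7.69% of receptors, 6.25% of ligands and 5.88% of signalling genes (11.1% of all). Within 40 kb lay 24.7% of IL genes, 25.6% of receptors and 29.4% of signalling genes (29.6% of all). Transcription starts alone were not run, since the annotation has no strand. No paired analysis was possible because neither table has a value per replicate. For the same reason no replicate could be left out. Without depth, loops of low contact number cannot be told from missed ones.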
